A study of Mus musculus with 6 samples.

Results

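L1MdF and L1MdN are LINE1 families of the mouse genome, and their RNA was compared between wild-type and Spocd1 ΔSPIN1 testes. They were taken by name, as all repeat families in the deposited counts that begin with L1MdF_ or L1MdN_, which gave 6 of 363 families. These are L1MdF_I to L1MdF_V and L1MdN_I, and all 6 had enough reads to be tested. Families named L1MdFanc, which stand for ancestors of the F type, were not included.

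LINE1 elements are retrotransposons that move through an RNA intermediate, and mouse families are told apart largely by the type of promoter at the 5′ end. The promoters of the young Tf and Gf families are related to the F type, and within a name a higher Roman numeral stands for an older family. In fetal male germ cells, piRNAs direct the methylation of young LINE1 promoters, a step that requires the nuclear protein SPOCD1.

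RNA-seq was performed on 3 wild-type and 3 Spocd1 ΔSPIN1 testis samples at postnatal day 20 (P20), each library from total RNA of 1 testis of mixed B6CBAF1/Crl; C57BL/6N strain, depleted of ribosomal RNA. The Spocd1 ΔSPIN1 samples are homozygous for an allele derived from 1 founder, in which amino acids of SPOCD1 are replaced by alanine so that it no longer binds the chromatin reader SPIN1. The labels do not state that the replicates are separate animals, so p-values measure the spread between libraries, part of which may be technical. Reads on repeat families came to 416517, 369598 and 499166 in wild-type replicates 1, 2 and 3, and to 842018, 1013224 and 918487 in Spocd1 ΔSPIN1 replicates 1, 2 and 3.

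The counts cover repeats and no genes, so the genotype and the cell types of the testes could not be checked against marker genes. Whole testis was used, and a different number of cells of a type cannot be told apart from a different amount of RNA per cell. Families with similar sequences may share reads, and the rule for reads that match several families is not given in the sources used here. Among Spocd1 ΔSPIN1 libraries, replicate 1 stood apart. Its counts differed from those of replicates 2 and 3 with chi-squares per degree of freedom of 413 and 352, against 14.4 between replicates 2 and 3, and 10.3 to 14.5 between wild-type libraries.

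Levels are given as CPM, the unit of edgeR for counts divided by library size, with library sizes adjusted by TMM, a trimmed mean of log ratios that takes most families as not changed. With total counts as library size, the median over the 292 tested families was a log2 fold change of −1.05, against −0.039 with TMM. Every family moved by a similar amount, between −1.04 and −0.99, and the 6 families described here by between −1.02 and −1.01. Fold changes with TMM are therefore relative to the median family.

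L1MdN_I rose in Spocd1 ΔSPIN1 testes when scaled by TMM and lay close to its wild-type level with total counts. It was the only one of the 6 families to pass the threshold, a Bonferroni-adjusted p-value below 0.05 in edgeR's quasi-likelihood test over all 292 families. Over all families 24 passed (8.22%), of which 16 were higher in Spocd1 ΔSPIN1 (5.48%), against 4 higher and 168 lower with total counts. None of the 5 L1MdF families passed in this test with TMM factors from all tested families and all 6 libraries, while 2 of them passed with the size factors of DESeq2, both in edgeR and with its own Wald test. All 5 had an unadjusted p under 0.05 in edgeR and were higher with TMM but lower with total counts, and 62 of the 292 families were higher with such a p (21.2%).

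In each of the 6 families, the TMM-scaled level was higher in all 3 Spocd1 ΔSPIN1 libraries than in any wild-type library, and with total counts every log2 fold change was below 0 instead. The same separation upward was seen in 61 of the 292 tested families (20.9%). The median log2 fold change of the 6 families was 0.41, with a range of 0.24 to 0.99, beside −0.039 for all tested families.

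**Figure D1:**
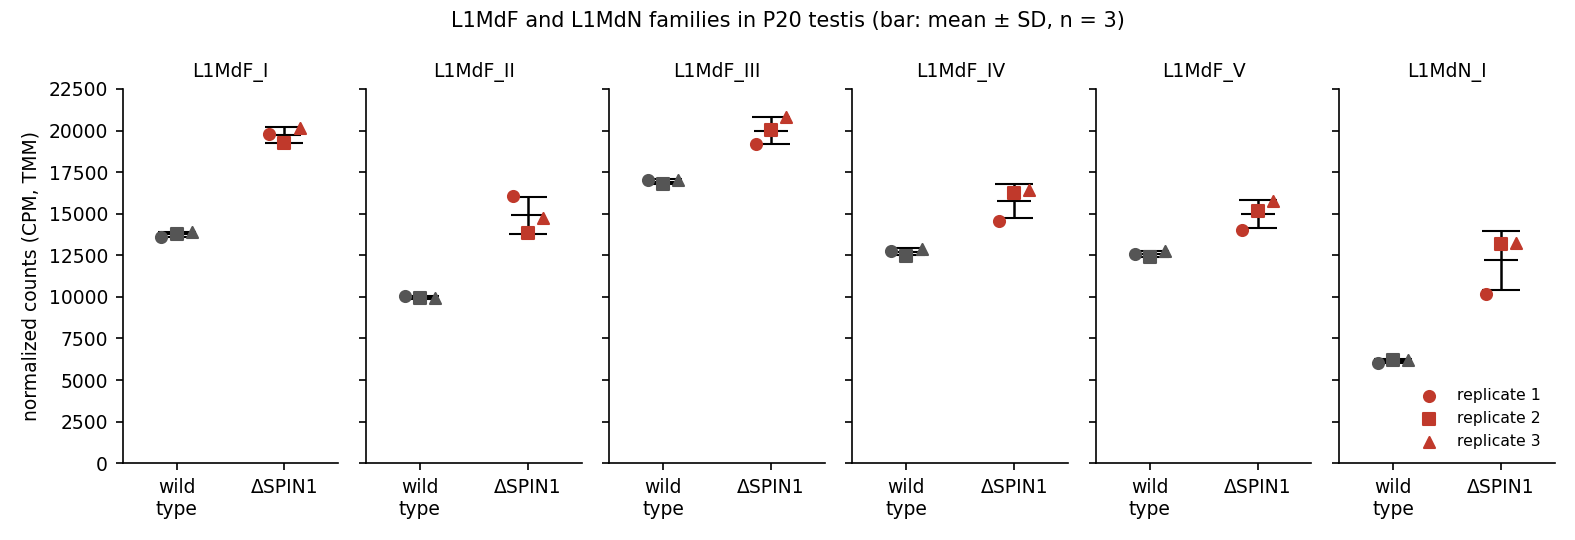
Normalized counts (CPM, scaled by TMM) of the 5 L1MdF families and L1MdN_I in each wild-type (grey) and Spocd1 ΔSPIN1 (red) library; bars give mean ± SD, n = 3 per genotype, and symbols mark the replicate number. With this scaling the red points lie above the grey points in every panel, with the largest fold (1.98) for L1MdN_I, and with total counts all 6 log2 fold changes are below 0.

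L1MdN_I, the single family with the N type of 5′ region, had 6031, 6213 and 6204 CPM in wild-type replicates 1, 2 and 3. It had 10151, 13191 and 13251 CPM in Spocd1 ΔSPIN1 replicates 1, 2 and 3. All Spocd1 ΔSPIN1 libraries were above all wild-type libraries with TMM, and replicate 1 was the lowest of the 3. The mean went from 6149 ± 103 to 12197 ± 1773 CPM (SD, n = 3 libraries each), a 1.98-fold difference. The log2 fold change was 0.99 with a standard error of 0.12 (Bonferroni-adjusted p = 0.0110 in edgeR), and −0.031 with total counts.

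The call of L1MdN_I depended on single libraries, although its log2 fold change stayed between 0.92 and 1.09 when each was left out. Without wild-type replicate 1, 2 or 3, the adjusted p-value in edgeR was 0.14, 0.1 or 0.0899. It was 0.0524 without Spocd1 ΔSPIN1 replicate 3 and 0.0396 without replicate 2. Without Spocd1 ΔSPIN1 replicate 1, the library that stood apart, it was 1.36e-05, with a log2 fold change of 1.09 and a standard error of 0.045.

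L1MdF_I, the youngest of the F families by its numeral, had 13611, 13800 and 13877 CPM in wild-type replicates 1, 2 and 3. In Spocd1 ΔSPIN1 replicates 1, 2 and 3 it had 19785, 19248 and 20162 CPM. The values within a genotype were close together and the genotypes did not overlap. The mean went from 13762 ± 137 to 19732 ± 459 CPM (SD, n = 3 each), or 1.43-fold. Its log2 fold change was 0.52 (standard error 0.081, Bonferroni-adjusted p = 0.0722 in edgeR) with TMM and −0.49 with total counts.

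L1MdF_II, next to it by numeral, had 10071, 9917 and 9944 CPM in wild-type replicates 1, 2 and 3. It had 16075, 13867 and 14746 CPM in Spocd1 ΔSPIN1 replicates 1, 2 and 3. Here replicate 1 was the highest of the mutant libraries, the opposite of its place in L1MdN_I, and again the genotypes did not overlap. From wild type to mutant the mean went from 9977 ± 82.3 to 14896 ± 1111 CPM, or 1.49-fold. On the log2 scale the change was 0.58 with a standard error of 0.089 (Bonferroni-adjusted p = 0.0628 in edgeR), and −0.43 with total counts.

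The families with higher numerals had smaller log2 fold changes than L1MdF_I and L1MdF_II with TMM but lay further below 0 with total counts, and the difference between these families was not tested. L1MdF_III had 17016, 16777 and 17004 CPM in wild-type replicates 1, 2 and 3, and 19165, 20010 and 20831 CPM in the mutant replicates. L1MdF_IV had 12761, 12478 and 12885 CPM in wild-type libraries, and 14592, 16270 and 16405 CPM in mutant libraries. L1MdF_V had 12602, 12421 and 12765 CPM in wild-type libraries, and 14042, 15157 and 15746 CPM in mutant libraries. In all 3 families, replicate 1 was the lowest mutant library but was still above every wild-type library with TMM. The means of the genotypes differed about 1.2-fold in each. The log2 fold changes were 0.24, 0.31 and 0.25 with TMM, each with a standard error under 0.09 and a Bonferroni-adjusted p of 1 in edgeR, and −0.78, −0.71 and −0.77 with total counts.

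How many of the 6 families passed depended on the scaling and on the adjustment. In edgeR with the size factors of DESeq2, L1MdN_I, L1MdF_I and L1MdF_II were called higher (Bonferroni-adjusted p = 0.00868, 0.0401 and 0.0423), beside 19 of all 292 families (6.51%). With TMM factors from families outside LINE1, L1MdN_I and L1MdF_II were called higher in edgeR (adjusted p = 0.0110 and 0.0297), and L1MdF_I was not (adjusted p = 0.0579), beside 22 of all families (7.53%). The Wald test of DESeq2, run with its own size factors, called L1MdN_I, L1MdF_I and L1MdF_II higher as edgeR did with those factors, with Bonferroni-adjusted p-values of 5.49e-11 for L1MdN_I, 1.39e-14 for L1MdF_I and 5.44e-08 for L1MdF_II, beside 30 of all families (10.3%). DESeq2 gave L1MdF_IV an adjusted p of 0.0514. With Benjamini-Hochberg adjustment in edgeR, 4 were called higher, namely L1MdN_I, L1MdF_I, L1MdF_II and L1MdF_IV (adjusted p = 0.0297), beside 45 of all families (15.4%). With total counts, L1MdF_III, L1MdF_IV and L1MdF_V were instead called lower in edgeR (Bonferroni-adjusted p = 0.00793, 0.0155 and 0.00702), beside 168 of all families (57.5%).

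Leaving out Spocd1 ΔSPIN1 replicate 1 also changed calls among the F families. Without it, L1MdF_I, L1MdF_II and L1MdF_IV passed in edgeR with Bonferroni-adjusted p-values of 0.00106, 0.00246 and 0.0259, beside 22 of the 297 families tested in that fit that were called higher (7.41%). Their log2 fold changes were then 0.51, 0.51 and 0.35 with TMM. L1MdF_III and L1MdF_V did not pass in any fit with a library left out.

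**Figure D2:**
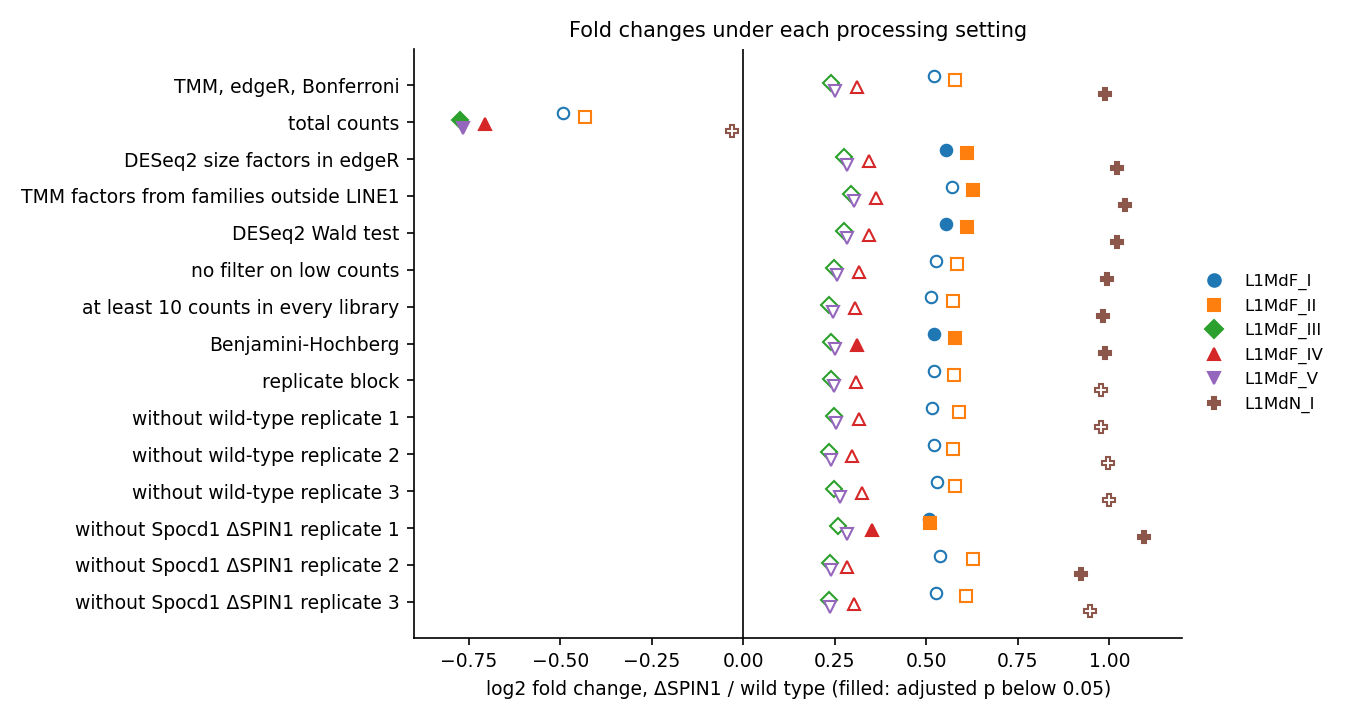
Log2 fold change (Spocd1 ΔSPIN1 over wild type) of the 6 families under each processing setting; filled symbols have an adjusted p below 0.05, by Bonferroni except in the Benjamini-Hochberg line, and each setting uses all 6 libraries unless 1 is left out. All values are above 0 except with total counts, where they run from −0.78 to −0.031.

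Levels of the 6 families were set beside each other per kilobase of the family's sequence. In wild type the order was L1MdF_III with 2612 ± 20.8 CPM per kilobase, L1MdF_I with 2156 ± 21.5, L1MdF_IV with 1982 ± 32.5, L1MdF_V with 1942 ± 26.5, L1MdF_II with 1576 ± 13.0 and L1MdN_I with 944 ± 15.8 (SD, n = 3 libraries). L1MdF_IV and L1MdF_V overlapped between libraries, and the other neighbours did not. In Spocd1 ΔSPIN1, L1MdF_I with 3092 ± 72.0 CPM per kilobase and L1MdF_III with 3086 ± 128 overlapped. L1MdF_IV, L1MdF_II and L1MdF_V followed with 2457 ± 157, 2353 ± 176 and 2309 ± 133 CPM per kilobase, each overlapping its neighbour. L1MdN_I was again the lowest, with 1872 ± 272 CPM per kilobase, below every L1MdF family in both genotypes.

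Within a library, where no scaling between libraries enters, L1MdN_I gained on L1MdF_I. The ratio of their counts was 0.443, 0.450 and 0.447 in wild-type replicates 1, 2 and 3, and 0.513, 0.685 and 0.657 in Spocd1 ΔSPIN1 replicates 1, 2 and 3. The mutant libraries were thus all above the wild-type libraries, with replicate 1 closest to them. The mean log2 ratio differed by 0.46 with a standard error of 0.13 and p = 0.1 by an exact permutation test (two-sided), which with n = 3 per genotype can go no lower. Of the ratios in this and the following paragraphs, 14 were tested in this way, and the Benjamini-Hochberg adjusted p was 0.1 for each.

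The mutant libraries also differed among themselves in ways that set the families apart. Relative to the wild-type mean, the TMM-scaled level of L1MdN_I was 1.65-fold in mutant replicate 1 and 2.15-fold in both others. L1MdF_I was even across the replicates, at 1.44-fold, 1.40-fold and 1.47-fold of its wild-type mean, and L1MdF_II was at 1.61-fold, 1.39-fold and 1.48-fold. The level in replicate 1 was 0.768 times the mean of replicates 2 and 3 for L1MdN_I, 1.0 times for L1MdF_I and 1.12 times for L1MdF_II. For L1MdF_III, L1MdF_IV and L1MdF_V it was 0.939, 0.893 and 0.909 times that mean.

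Young LINE1 families outside this group spanned a wider range in the same libraries. The level in replicate 1 was 1.34 times the mean of replicates 2 and 3 for L1MdTf_I, and 0.241 times for L1MdA_I. A lower level in replicate 1 was common, and was seen in 38 of the 46 tested LINE1 families with TMM, with a median of 0.892 times the mean of replicates 2 and 3. It included older families such as L1MdFanc_II (0.868). L1MdF_I and L1MdF_II were among the 8 without it. The others were L1MdTf_I, L1MdTf_II, L1MdTf_III, L1Md_Gf_5end (1.41), LX5b (1.03) and L1VL2_5 (1.08). L1MdGf_I (0.813) and L1MdGf_II (0.679) were lower in replicate 1. Whether this library's composition had a part in the differences between the families was not tested.

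**Figure D3:**
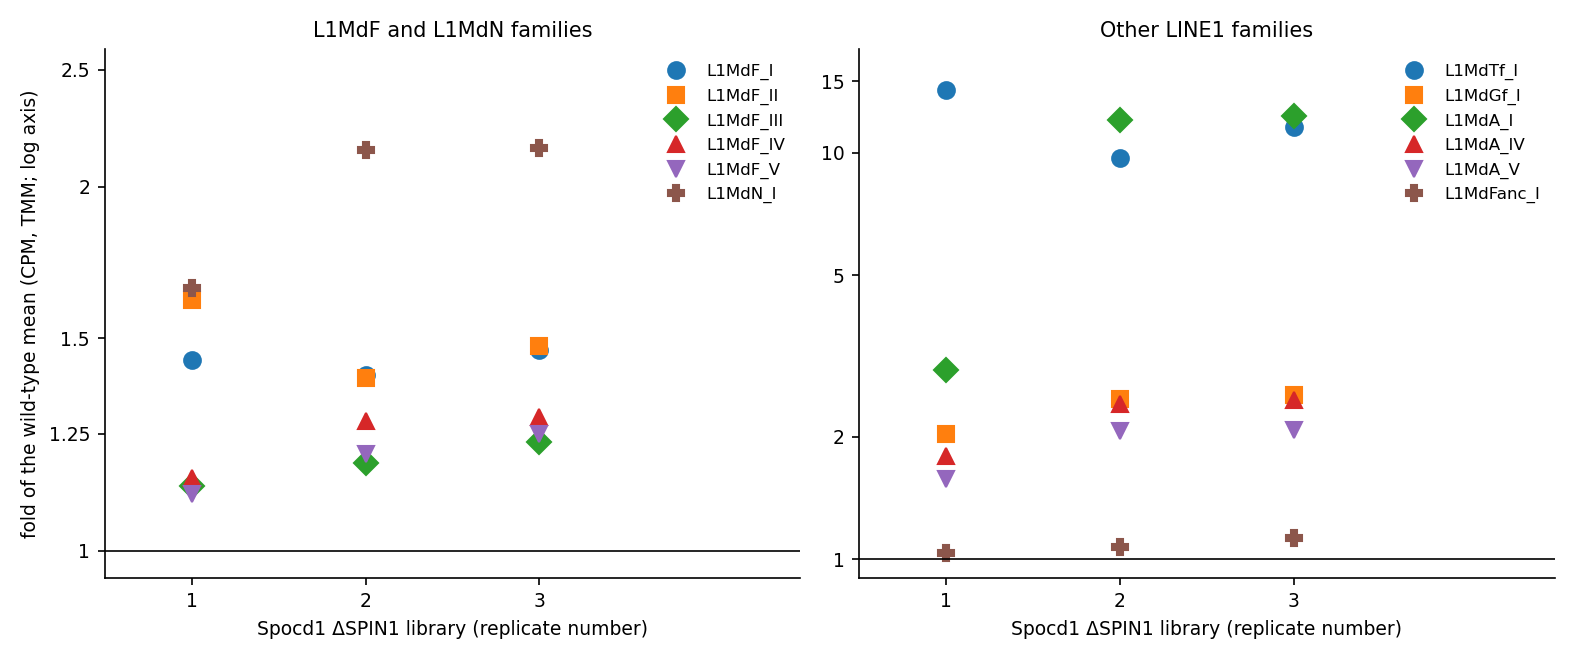
Level in each Spocd1 ΔSPIN1 library as a fold of the wild-type mean (CPM scaled by TMM, log axis) for the L1MdF and L1MdN families (left) and other LINE1 families (right, with a wider axis). L1MdN_I lies at 1.65 in replicate 1 and at 2.15 in replicates 2 and 3, while L1MdF_I stays between 1.40 and 1.47; with total counts the log2 fold changes of all families on the left are below 0.

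By the median log2 fold change of each LINE1 group, L1MdF lay between the young groups and the older ones, although single families of these groups overlapped with it. The table holds 51 families named L1 or LX, of which 46 were tested, 40 of them outside L1MdF and L1MdN. Of these 40, 9 passed in edgeR and all 9 were higher in Spocd1 ΔSPIN1 with TMM, although L1MdA_V was below 0 (−0.086) with total counts, under which only 4 of all 292 families were called higher. The 9 were 3 of 3 L1MdTf, 3 of 3 L1MdGf and 3 of 8 L1MdA and L1_MM families. None passed among 2 L1MdFanc, 3 L1MdV, 2 L1MdMus, 6 LX and 13 further L1 families. The L1MdGf group includes the 5′ end entry L1Md_Gf_5end. The 5′ end entry L1Md_F_5end and the families L1Lx_I to L1Lx_IV were placed among the further L1 families.

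Median log2 fold changes with TMM were 3.57 in the L1MdTf group, 1.69 in L1MdGf and 1.52 in L1MdA with L1_MM, against 0.31 in L1MdF. They were 0.081 in L1MdFanc, 0.065 in L1MdMus, 0.035 in L1MdV, −0.0011 in the further L1 families and −0.17 in LX. Because total counts lowered each value by about the same amount, the order of these medians does not rest on the scaling, but with total counts the medians of L1MdF, L1MdFanc, L1MdMus and L1MdV are below 0 as well. Single families fell outside this order. With TMM, L1MdA_VI (0.34) and L1MdA_VII (0.56) lay within the L1MdF range of 0.24 to 0.58. L1MdV_I (0.23, standard error 0.087) lay next to L1MdF_III (0.24, standard error 0.085). With total counts, L1MdA_VI, L1MdA_VII and L1MdV_I were at −0.68, −0.46 and −0.79. L1VL1_5, among the further L1 families, was at 0.84 on the log2 scale with TMM and −0.17 with total counts. It had 14 to 44 reads per library (Bonferroni-adjusted p = 0.798 in edgeR). The differences between the groups were not tested.

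In each of these groups the family with the highest mean level per kilobase over all 6 libraries was taken for comparison. In the young groups this choice follows the mutant level, so the log2 fold changes of L1MdTf_II (3.6), L1Md_Gf_5end (3.88) and L1MdA_I (3.18) are given as a description. L1MdA_I did not pass in edgeR (Bonferroni-adjusted p = 0.0693), while L1MdTf_II and L1Md_Gf_5end did. With TMM, L1MdA_I was at 2.93-fold of its wild-type mean in mutant replicate 1, against 12.0-fold and 12.3-fold in replicates 2 and 3. By the wild-type level alone these groups would be represented by L1MdTf_III, L1MdGf_II and L1MdA_VI, with log2 fold changes of 1.56, 1.69 and 0.34 with TMM and of 0.55, 0.66 and −0.68 with total counts. The other groups would keep the same family. L1MdFanc_I, named for the ancestors of the F families, went from 13500 ± 507 to 14550 ± 640 CPM (SD, n = 3 each). Its log2 fold change was 0.11 with TMM (standard error 0.085), below that of each L1MdF family, and −0.91 with total counts. L1MdV_I, L1MdMus_I, L1_Mus1_3end and LX2B had log2 fold changes of 0.23, 0.081, 0.094 and −0.13 with TMM, each with an adjusted p of 1 in edgeR, and all are below 0 with total counts.

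**Figure D4:**
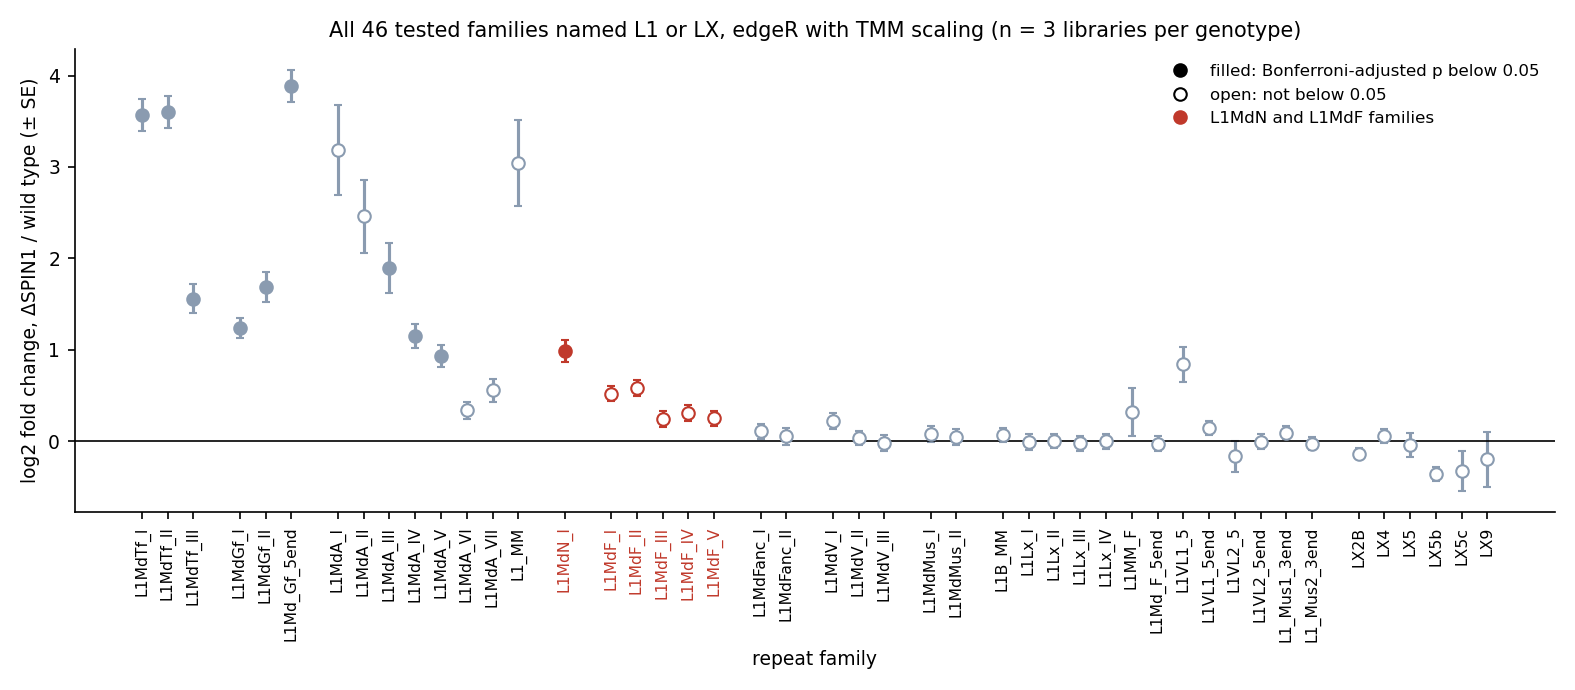
Log2 fold change (Spocd1 ΔSPIN1 over wild type, edgeR with TMM, bars ± standard error, n = 3 libraries per genotype) of the 46 tested families named L1 or LX; filled points passed the Bonferroni-adjusted threshold and red marks L1MdN_I and the L1MdF families. L1MdN_I lies at 0.99 and the L1MdF families lie between 0.24 and 0.58, below the Tf families and above L1MdFanc; with total counts each point moves by between −1.04 and −0.99 and the red points fall below 0.

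The ratio to L1MdFanc_I within a library gave the difference from the ancestral families without scaling. For L1MdF_I this ratio was 0.991, 1.07 and 1.0 in wild-type replicates 1, 2 and 3, and 1.42, 1.33 and 1.32 in Spocd1 ΔSPIN1 replicates 1, 2 and 3. The genotypes did not overlap, and the mean log2 ratio was higher in Spocd1 ΔSPIN1 by 0.41 (standard error 0.047). For L1MdN_I the ratio was 0.439, 0.481 and 0.448 in wild type and 0.728, 0.911 and 0.871 in Spocd1 ΔSPIN1, a difference of 0.87 in the mean log2 ratio (standard error 0.11). The differences for L1MdF_II, L1MdF_III, L1MdF_IV and L1MdF_V were 0.47, 0.13, 0.20 and 0.14, with standard errors of 0.091, 0.025, 0.035 and 0.027. In all 6 the genotypes did not overlap, and p was 0.1 by the exact permutation test, its lower limit with n = 3 per genotype. L1MdFanc_I was chosen for this ratio after its values had been seen. How many of all tested families separate by genotype on this ratio was not counted, so the separation is not shown to be particular to these 6.

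Relative to L1MdTf_I, a young family with an F-related promoter, all 6 families lost ground. Among all tested families, only L1MdTf_II (3.6) and L1Md_Gf_5end (3.88) had a higher log2 fold change than L1MdTf_I (3.57) with TMM. A loss against L1MdTf_I was therefore not particular to these 6 families. The count of L1MdF_I was 1.12, 1.10 and 1.08 times that of L1MdTf_I in wild-type replicates 1, 2 and 3, and 0.111, 0.158 and 0.139 times in Spocd1 ΔSPIN1 replicates 1, 2 and 3. For L1MdN_I the corresponding ratios were 0.495, 0.497 and 0.483 in wild type, and 0.0568, 0.108 and 0.0914 in Spocd1 ΔSPIN1. In both, wild-type libraries were nearly identical and the ratio was lowest in mutant replicate 1. The difference in the mean log2 ratio was −3.03 for L1MdF_I (standard error 0.15) and −2.57 for L1MdN_I (standard error 0.28). For L1MdF_II, L1MdF_III, L1MdF_IV and L1MdF_V it was −2.98, −3.31, −3.24 and −3.30 (standard errors 0.10, 0.18, 0.21 and 0.20). Each had a p of 0.1 in the exact permutation test, the lower limit with n = 3 per genotype.

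The gains of the 6 families were small beside that of L1MdTf_I when expressed in reads. With TMM scaling the mean of L1MdTf_I rose by 135955 CPM, and those of L1MdN_I and L1MdF_I differed by 6048 and 5969 CPM, or 4.45% and 4.39% of that amount, although with total counts both log2 fold changes were below 0. For L1MdF_II, L1MdF_III, L1MdF_IV and L1MdF_V the share was 3.62%, 2.26%, 2.24% and 1.75%. Whether reads of Tf, Gf or A elements were counted on L1MdF or L1MdN sequences was not tested, and such reads cannot be told apart from reads of the families themselves in these counts.

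The table also lists an entry for the 5′ end of F elements, L1Md_F_5end. It lies outside the name rule for the 6 families and was chosen after its values had been seen. Its level was 480, 532 and 554 CPM in wild-type replicates 1, 2 and 3, and 477, 519 and 544 CPM in Spocd1 ΔSPIN1 replicates 1, 2 and 3. The genotypes overlapped almost completely. The log2 fold change was −0.026 with TMM (standard error 0.086, Bonferroni-adjusted p = 1 in edgeR) and −1.04 with total counts. It rested on 269 to 404 reads per library, fewer than any of the 6 families had.

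The corresponding entry for Gf elements, L1Md_Gf_5end, had 785, 801 and 854 CPM in the wild-type libraries, and 14889, 9446 and 11656 CPM in the mutant libraries. Its ratio to L1Md_F_5end within a library was 1.63, 1.51 and 1.54 in wild type and 31.2, 18.2 and 21.4 in Spocd1 ΔSPIN1. All mutant libraries were far above the wild-type libraries. The mean log2 ratio differed by 3.88 with a standard error of 0.23 (p = 0.1 by the exact permutation test, again its lower limit with n = 3 per genotype).

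Families with the most similar pattern were found by the SD, over the 6 libraries, of the log2 ratio of counts. Outside the 6 families, the closest to L1MdN_I were L1MdA_V (SD 0.036) and L1MdA_IV (SD 0.093). The count of L1MdN_I was 0.864 to 0.896 times that of L1MdA_V in wild type and 0.909 to 0.921 times in Spocd1 ΔSPIN1. It was 0.596 to 0.615 times that of L1MdA_IV in wild type and 0.527 to 0.556 times in Spocd1 ΔSPIN1. The log2 fold changes of L1MdA_V and L1MdA_IV with TMM were 0.93 and 1.15 (Bonferroni-adjusted p = 0.0224 and 0.00941 in edgeR), and −0.086 and 0.13 with total counts. Among the L1MdF families the closest to L1MdN_I was L1MdF_I, with a much larger SD of 0.29.

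L1MdF_I and L1MdF_II were closest to each other (SD 0.069). Outside the 6 families, both were closest to IAPLTR4_I, a family of IAP endogenous retroviruses (SD 0.078 and 0.086), with a log2 fold change of 0.47 with TMM (Bonferroni-adjusted p = 0.0658 in edgeR) and −0.54 with total counts. The next was the LTR family MLTR31D_MM (SD 0.096 and 0.14). It had only 57 to 111 reads per library, so counting error weighs more on its SDs than on the SD between L1MdF_I and L1MdF_II. IAPs are LTR retrotransposons and LINE1 elements are not, and closeness in this measure only describes the 6 libraries.

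L1MdF_III and L1MdF_V formed the tightest pair among the 6 families, with an SD of 0.019. The count of L1MdF_III was 1.33 to 1.35 times that of L1MdF_V in wild type and 1.32 to 1.36 times in Spocd1 ΔSPIN1. Whether the pair shares reads was not tested. Outside the 6 families, both were closest to L1MdV_I (SD 0.036 and 0.026), followed by RLTR13A2 for L1MdF_III (SD 0.065) and MLTR31F_MM for L1MdF_V (SD 0.051). RLTR13A2 had 194 to 347 reads per library and MLTR31F_MM only 39 to 68, so counting error weighs more on their SDs than on those of L1MdV_I. L1MdF_IV was closest to L1MdA_VI (SD 0.030), an older A family with a log2 fold change of 0.34 with TMM and −0.68 with total counts, and next to L1MdF_V (SD 0.037). The following family outside the 6 was L1MdV_I (SD 0.050). The count of L1MdF_IV was 1.06 to 1.11 times that of L1MdA_VI in wild type and 1.04 to 1.09 times in Spocd1 ΔSPIN1.

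Together the 6 families took 10.3%, 9.79% and 10.6% of the repeat counts in wild-type replicates 1, 2 and 3, and 6.94%, 6.90% and 6.74% in Spocd1 ΔSPIN1 replicates 1, 2 and 3. Their share of all repeat counts was thus lower in every mutant library. Over the same libraries, the share of all LINE1 families went from 44.9% ± 2.22 to 66.2% ± 4.98 (SD, n = 3 each). When the other LINE1 families were taken out of the total, the 6 families made up 15.9%, 14.6% and 16.7% in wild type and 14.9%, 18% and 18.2% in Spocd1 ΔSPIN1. On this scale the genotypes overlapped, since mutant replicate 1 lay within the wild-type range. This total still holds families outside LINE1 that differed between genotypes, such as the endogenous retrovirus family MMERVK10C. It had 5746, 4840 and 6513 reads in wild-type replicates 1, 2 and 3. In Spocd1 ΔSPIN1 replicates 1, 2 and 3 it had 51719, 32020 and 31502 reads. The share without MMERVK10C in the total was not computed, so the overlap holds for this total only.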

How the data were processed

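The authors deposited raw counts of reads for each repeat family in the 6 libraries, with the length of each family and no normalization. Their processing notes name cutadapt 1.18, Bowtie2 2.4.2 and the build mm10, without role or order. An entry named for the aligner held 0 in every library and was left out. Libraries were matched to genotype and replicate by column name.

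Counts were tested in edgeR 4.0.16 (R 4.3.3) with glmQLFit and glmQLFTest, two-sided, TMM factors, filterByExpr by genotype (292 of 363 families kept), no covariate and Bonferroni adjustment over the tested families. Standard errors were derived from the F statistic. Ratios within a library were tested by exact two-sided permutation (Python 3.11.15, scipy 1.17.1). At the lowest count in any library, counting error was 1.09% for L1MdF_III and 1.78% for L1MdN_I, with the other 4 families in between. PCR copies are not independent molecules, so this covers counting alone. No pair of replicates was as alike as repeats of 1 library would be, and none was merged.

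The families, groups and tests were chosen with earlier results of these data known. The fold changes of the 6 families, the ratios to L1MdTf_I and the ratio of L1MdN_I to L1MdF_I were planned. The ratios to L1MdFanc_I and between the 5′ end entries were not. The text names all L1MdF_ and L1MdN_ families, the family with the highest mean level per kilobase over all 6 libraries, mutant ones included, in each other LINE1 name group (Lx is spelled LX in the table), and the 2 outside families closest to each by the SD of log2 ratios. L1MdTf_I was the reference for ratios. L1MdGf_I, L1MdGf_II, L1MdFanc_II, L1MdTf_III, L1VL1_5, L1VL2_5, LX5b, L1MdFanc_I as reference and the 5′ end entries were chosen after their values were seen. The same holds for L1MdA_VII and MMERVK10C. Alternatives were total counts, DESeq2's size factors, TMM factors from families outside LINE1, DESeq2 1.42.0 (Wald test, no independent filtering), no low-count filter, Benjamini-Hochberg adjustment, a minimum of 10 counts per library, the replicate number as a block, each library left out and, for ratios, 10 added to counts. The scripts were tested on simulated data.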

Additional observations from a re-analysis of the deposited data

How the results depend on the processing

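Across 14 alternatives for each of the 6 families, the 84 fits gave 62 results with the same direction and side of the threshold, 11 that newly passed, 5 that no longer passed and 6 that changed direction. The 6 were those with total counts, where the log2 fold changes were −0.49 for L1MdF_I, −0.43 for L1MdF_II, −0.78 for L1MdF_III, −0.71 for L1MdF_IV, −0.77 for L1MdF_V and −0.031 for L1MdN_I. The scaling shifts all families alike. Adding 10 to the counts left the direction of all 14 ratios within a library as it was. Leaving out a library or pairing by number cannot turn these directions, because the genotypes do not overlap.

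Of the L1MdF and L1MdN families, 1 was called in edgeR with Bonferroni adjustment, and it was higher. With total counts 3 were called and 0 were higher. The number called, all higher with these settings, was 3 with DESeq2's size factors, 2 with TMM factors from families outside LINE1, 3 with the Wald test of DESeq2 and 4 with Benjamini-Hochberg adjustment. With each library left out in turn, 0 to 4 were called, all higher. Over all families, 24 were called (16 higher, 8 lower), against 172 with total counts (4 and 168), 47 with DESeq2 (30 and 17) and 92 with Benjamini-Hochberg adjustment (45 and 47). With each library left out, 14 to 28 were called, 7 to 22 of them higher and 5 to 11 lower. The cause was not tested.

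A fit with a replicate block called 14 families, 8 of them higher, and 0 of the L1MdF and L1MdN families, with a Bonferroni-adjusted p of 0.0790 for L1MdN_I in edgeR. Deviations from the genotype means correlated by 0.083, 0.0080 and −0.14 between libraries of the same number, and not every library correlated best with its own number, so the numbers were not taken to pair the samples.

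The 6 families had 3141 reads or more in each library, with a counting error of 1.78% or less, while 3 libraries per genotype limit all tests. Reads on repeats are the only counts, so the level of these families relative to genes was not measured.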
